A study of Mus musculus with 24 samples.

Results

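The Bcl2 family sets the threshold at which a cell starts apoptosis through its mitochondria. Its 10 members examined here were the genes of the deposited count table named Bcl2, Bcl2l1, Mcl1, Bax, Bak1, Bcl2l11, Bad, Bid, Bbc3 and Pmaip1, each found as 1 row among 56748 genes. Of these, 8 passed the filter on low counts and were tested. Bak1 and Pmaip1 did not pass and are given as levels only.

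The proteins of the family fall into roles that oppose each other. Bcl2, Bcl2l1 (which encodes Bcl-xL) and Mcl1 are pro-survival and keep the outer mitochondrial membrane closed. Bax and Bak1 are the effectors that open it and release cytochrome c, which starts the caspase cascade. The BH3-only proteins, here Bim (Bcl2l11), Bad, Bid, Puma (Bbc3) and Noxa (Pmaip1), sense stress and act by binding the other members. Blood stem cells are known to depend on Mcl1, and forced expression of Bcl2 is known to raise their number.

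The 24 libraries came from stem and progenitor cells sorted from mouse bone marrow, although the tissue field of the labels reads blood. They form 8 groups of 3, namely wild type (WT) and knockout (KO) libraries of hematopoietic stem cells (HSC) and of 3 kinds of multipotent progenitor, MPP1, MPP2 and MPP4 by label. All groups, WT included, were given tamoxifen. The labels used here give no age, sex, strain or Cre driver and do not name the deleted gene. Nor do they state that the libraries of 1 group came from separate mice, so the spread behind each p-value may be technical. Total counts were 2540511 to 3807003 per library, and 3 counts in a library, taken as the floor, correspond to 0.796 to 1.16 CPM, the count per scaled library total.

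Several checks bear on the labels. Ddx6, an RNA helicase of P-bodies taken as the deleted gene from general knowledge of the study and not from the labels, had counts of 154 to 319 under the WT label and 194 to 308 under the KO label, and its log2 fold change was above 0 in each of the 4 populations. It was called in MPP1 as a rise of 0.61 ± 0.18 (edgeR adjusted p = 0.02108), opposite to what a loss of the transcript would give. After subtraction of background, which is estimated further on, it was not called in any population (adjusted p of 0.2789 in MPP1). Counts over a whole gene do not show whether an exon is missing, so Ddx6 does not check the KO label. Kit, Ly6a and Ptprc, which mark stem and progenitor cells, had counts in every group. The markers went against 2 of the population labels. Flt3, a defining marker of MPP4, was at 1138 ± 52.3 CPM (mean ± SD, n = 3 throughout) in WT MPP2-labelled and 64.9 ± 14.2 CPM in WT MPP4-labelled libraries, while Gata1, a megakaryocyte-erythroid factor, was at 2.84 ± 1.11 and 41.3 ± 12.7 CPM. These populations are therefore called by their labels only. Counts on olfactory and vomeronasal receptor genes, which blood cells do not use, gave an estimate of background along gene bodies. As a share of all counts it was 20.2 to 22.9% in WT HSC and 5.21 to 5.73% in KO-labelled HSC. The WT and KO-labelled shares were 22.7 to 24.3% and 13.4 to 13.8% for MPP1, 11.3 to 11.6% and 8.64 to 9.85% for MPP2, and 29.8 to 29.9% and 17.8 to 18.5% for MPP4. Because it was lower in KO-labelled libraries of all 4 populations, each call on a member is given both on the deposited counts and after subtraction of this background. The fit after subtraction scaled the remaining counts anew, so its fold changes also carry a change of scale.

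Most of the calls on members rest on Bcl2, and the 250 bases before its annotated start are shown for that reason. They lie on the minus strand at chr1:106714291-106714540 of GRCm38.p6 and are taken from RefSeq (the deposited counts were made on another build, mm39). Read 5′ to 3′, with matches to the GC box (GGGCGG or, on the other strand, CCGCCC) and to the core of the cyclic AMP response element (TGACGT or ACGTCA) in capitals, the stretch is
Bcl2: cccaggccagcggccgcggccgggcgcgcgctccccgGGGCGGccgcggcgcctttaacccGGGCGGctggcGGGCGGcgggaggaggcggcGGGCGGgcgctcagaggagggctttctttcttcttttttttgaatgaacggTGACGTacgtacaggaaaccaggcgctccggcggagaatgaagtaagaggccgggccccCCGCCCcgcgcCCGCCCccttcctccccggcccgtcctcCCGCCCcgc
It holds 7 GC box matches and 1 match to the response element core. These 250 bases hold no match to the TATA box (TATAAA), the E-box (CACGTG) or the forkhead motif (TGTTTAC). Of 32851 RefSeq promoter windows cut to the same 250 bases, 32.7% hold a GC box and 6.47% the response element core. A TATA box is held by 12.4%, the E-box by 6.02% and the forkhead motif by 3.17%, searched on both strands. A match is a run of letters and not a site shown to be used.

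The pro-survival gene Bcl2 was higher in the KO-labelled than in the WT libraries of each of the 4 populations, 3.96-fold in HSC and 1.83- to 2.43-fold elsewhere. In HSC its level was 302.8, 309.6 and 290.9 CPM in the WT libraries and 1264, 1121 and 1189 CPM in the KO-labelled libraries. In MPP1 it was 206.4, 274.3 and 240.5 CPM in WT and 604.7, 583 and 563 CPM in KO-labelled libraries. The lowest KO-labelled library stood above the highest WT library in both populations. In MPP2-labelled libraries the values were 784.5, 849.7 and 799.9 CPM in WT and 1482, 1522 and 1459 CPM in KO. In MPP4-labelled libraries they were 378.1, 323.8 and 389.5 CPM in WT and 741.1, 774.9 and 665.9 CPM in KO. Here too the groups did not overlap. Groups without overlap were seen for 53.9% of all genes tested in HSC, 35.1% in MPP1, and 25.2% and 31.7% under the labels MPP2 and MPP4.

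**Figure D1:**
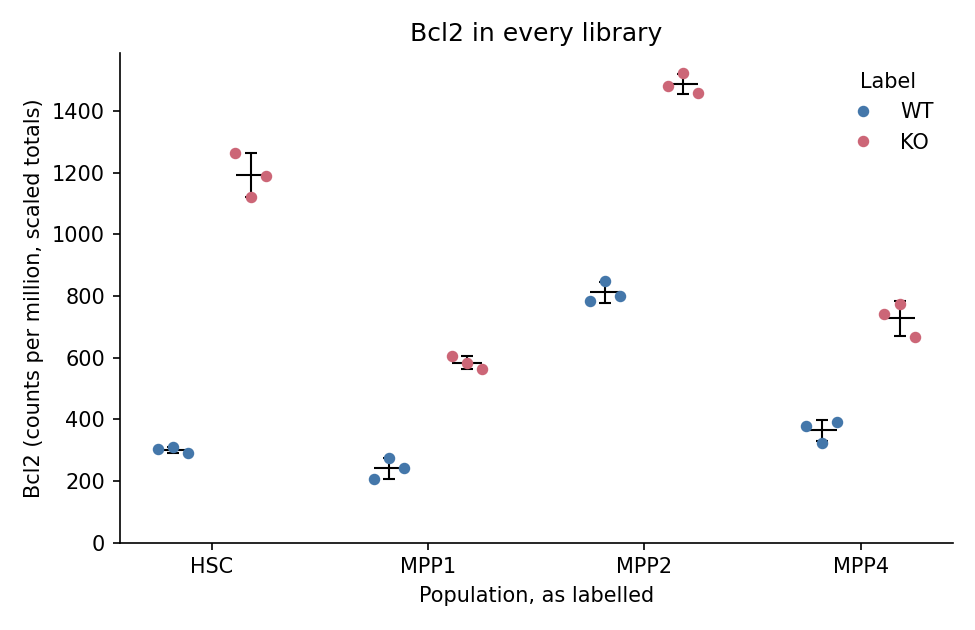
Level of Bcl2 in CPM on scaled library totals (y axis, from 0) in each of the 24 libraries, by labelled population (x axis) and genotype (colour), with the mean and SD of 3 libraries as bars. The KO-labelled libraries lie above the WT libraries in each population, with means of 1191 against 301.1 CPM in HSC and 1488 against 811.4 CPM in MPP2-labelled libraries.

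In edgeR's quasi-likelihood test, with p-values adjusted by Benjamini-Hochberg over the 21964 genes tested, the log2 fold change of Bcl2 between KO-labelled and WT libraries was 1.98 ± 0.087 (SE) in HSC, with an adjusted p of 6.367e-22. It was 1.28 ± 0.086 in MPP1 (adjusted p = 3.625e-15), 0.87 ± 0.084 in MPP2-labelled libraries (adjusted p = 1.336e-10) and 1.00 ± 0.085 in MPP4-labelled libraries (adjusted p = 4.164e-12). After background was subtracted the log2 fold changes were 1.58, 1.10, 0.75 and 0.74, with adjusted p of 5.807e-11, 5.098e-08, 9.083e-06 and 1.734e-05. The estimated background made up 9.19% of the Bcl2 count in WT HSC and 0.726% in KO-labelled HSC, and at most 12.3% in any group. Bcl2 had the 44th largest rise among the 11509 genes of at least 10 CPM in HSC, but only the 823rd in MPP4-labelled libraries. Genes that rose in each of the 4 populations numbered 313, or 1.43% of those tested, and Bcl2 was the only member among them.

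The rise was larger in HSC than in the progenitors. The interaction of genotype and population for Bcl2 had an adjusted p of 2.974e-09 in edgeR, and 3.247e-04 after subtraction. As differences of log2 fold changes, the effect in HSC exceeded that in MPP1 by 0.71 ± 0.12 (adjusted p = 4.402e-05), that in MPP2-labelled libraries by 1.11 ± 0.12 (adjusted p = 1.721e-09) and that in MPP4-labelled libraries by 0.98 ± 0.12 (adjusted p = 9.419e-08) by the same test. These 3 comparisons share the HSC libraries. Over all genes, 10.1%, 17.4% and 8.74% were called in them. After subtraction the difference from MPP1 was 0.49 with an adjusted p of 0.04935. Those from MPP2-labelled and MPP4-labelled libraries were then 0.83 (edgeR adjusted p = 3.635e-04) and 0.84 (adjusted p = 4.519e-04). In bulk libraries, more cells of a Bcl2-high kind and more RNA per cell cannot be told apart.

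Among WT libraries the order of Bcl2 levels was MPP2-labelled (811.4 ± 34.1 CPM), MPP4-labelled (363.8 ± 35.1), HSC (301.1 ± 9.46) and MPP1 (240.4 ± 34.0). Among KO-labelled libraries it was MPP2-labelled (1488 ± 32.0 CPM), HSC (1191 ± 71.5), MPP4-labelled (727.3 ± 55.8) and MPP1 (583.6 ± 20.9). No neighbours in either order overlapped. In WT libraries HSC thus had a lower level than those labelled MPP4, and in KO-labelled libraries a higher one. Over all genes tested, 20.3%, 39.3% and 25.7% had no overlap between WT HSC and WT MPP1, MPP2-labelled and MPP4-labelled libraries. That share was not counted among KO-labelled populations or between WT MPP2-labelled and MPP4-labelled libraries. Against WT HSC, the log2 difference of WT MPP2-labelled libraries was 1.43 ± 0.086 (edgeR adjusted p = 2.278e-17), and 1.225 (adjusted p = 2.383e-09) after subtraction. The other differences were smaller, at 0.27 ± 0.085 for MPP4-labelled libraries (adjusted p = 0.02933) and -0.32 ± 0.086 for MPP1 (adjusted p = 0.01773). The call for MPP1 was lost after subtraction (adjusted p = 0.05419), in a fit of only the 6 libraries compared (adjusted p = 0.07325) and without any of 4 of those libraries, with the smallest difference, -0.23, without WT MPP1 replicate 1. That for MPP4-labelled libraries was lost with no filter (adjusted p = 0.06758), in a fit of only the 6 libraries (adjusted p = 0.106) and without any of 5 of the 6 libraries, down to 0.21 without WT MPP4 replicate 3, but after subtraction it was 0.44 with an adjusted p of 0.002641.

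Bcl2l1, whose product Bcl-xL protects progenitors and red cell precursors, did not pass the test in any population. In HSC it was 78.41, 79.58 and 84 CPM in WT and 108.7, 106.1 and 112.5 CPM in KO-labelled libraries. These groups did not overlap, as was so for 53.9% of all genes tested in HSC. The log2 fold change of 0.44 ± 0.18 had an adjusted p of 0.05188 in edgeR, and it was 0.02 (adjusted p = 0.9669) after subtraction and new scaling. Background made up an estimated 9.96% of the Bcl2l1 count in WT HSC and 2.29% in KO-labelled HSC. The fold changes were 0.27 ± 0.19 in MPP1 and, under the labels MPP2 and MPP4, 0.34 ± 0.19 and -0.22 ± 0.19, with groups that overlapped. The average over the populations was 0.21 ± 0.093 (adjusted p = 0.05904), and without any of 5 libraries it was called (adjusted p from 0.03124 to 0.04908), as it was over HSC and MPP1 only (0.35, adjusted p = 0.02634). After subtraction its direction turned, to -0.05 (adjusted p = 0.7759). Across WT populations, Bcl2l1 fell in MPP1 (43.22, 55.89 and 52.92 CPM) against HSC by 0.67 ± 0.19 on the log2 scale (edgeR adjusted p = 0.02936, 0.02791 after subtraction). Leaving out any of the 6 libraries ended that call, with adjusted p from 0.05024 to 0.2067. Bcl2l1 was not called in WT MPP2-labelled (-0.21 ± 0.19, adjusted p = 0.475) or MPP4-labelled libraries (0.07 ± 0.18, adjusted p = 0.9073) against WT HSC.

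Mcl1, the short-lived pro-survival member, had 35 to 135 counts per library. Its range was 17.8 to 38.9 CPM in the WT libraries, with a median of 27.7, and 9.76 to 34.1 CPM in the KO-labelled libraries, with a median of 26.8. Its log2 fold change was -0.04 ± 0.32 in HSC and -0.32 ± 0.31 in MPP1, with -0.10 ± 0.31 and -0.19 ± 0.32 for the labels MPP2 and MPP4, and edgeR called none (adjusted p of 0.5734 to 0.9235). The groups did not overlap in MPP1, as was so for 35.1% of all genes tested there. In HSC the 95% interval ran from -0.72 to 0.63, so a change within that range in either direction is not excluded. Averaged over the populations it was -0.16 (adjusted p = 0.3894) on the deposited counts and -0.49 (adjusted p = 0.02813) after subtraction, where it was called as a fall. Background made up only an estimated 0.838 to 4.08% of the Mcl1 count per group. How far the new scaling made this call was not tested. Against WT HSC the log2 differences of Mcl1 were 0.36 ± 0.31 in WT MPP1, 0.36 ± 0.31 for the label MPP2 and -0.32 ± 0.32 for the label MPP4, and none was called (edgeR adjusted p of 0.4799 to 0.8303).

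Of the effectors, Bax was near the limit of detection, with counts of 2 to 23 under the WT label and 0 to 39 under the KO label. In MPP4-labelled libraries it was 1.196, 1.916 and 1.025 CPM in WT and 5.853, 11.08 and 5.877 CPM in KO. These groups did not overlap, as was so for 31.7% of all genes tested there. The log2 fold change of 2.42 ± 0.99 had an edgeR adjusted p of 0.08254, and background made up an estimated 72.9% of the WT count. In HSC, MPP1 and MPP2-labelled libraries the groups overlapped. Averaged over the 4 populations, Bax rose by 1.10 ± 0.47 (adjusted p = 0.04700). This call was lost with median-of-ratios scaling, with no filter or a stricter filter, in DESeq2, with a replicate block, after subtraction and over HSC and MPP1 only (adjusted p from 0.05234 to 0.2305). It was also lost without any of 12 single libraries, down to 0.73 (adjusted p = 0.2019) without KO MPP2 replicate 1. Against WT HSC, Bax was not called in WT MPP1 (-0.23 ± 0.94), MPP2-labelled (0.47 ± 0.93) or MPP4-labelled libraries (-1.04 ± 0.98), with edgeR adjusted p of 0.657 to 0.9899. Gm45808 on the same strand covers 12.2% of its exon bases, so reads could be split between the genes.

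Bak1, the other effector, was listed at 0 in all 24 libraries. Of its exon bases, 25.5% lie under Ggnbp1 on the opposite strand. Among the wider apoptosis genes, the pro-survival gene Bcl2l2, Diablo, which releases caspases from their inhibitors, and Fbxw7, part of a ligase that marks Mcl1 for decay, were also listed at 0 in every library. A value of 0 is therefore reported as listed and not as an absent transcript.

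Bcl2l11 (Bim), which can bind every pro-survival member and is needed for the death of many blood cells, was the only BH3-only gene called between genotypes. In MPP1 it was 32.64, 37.35 and 33.04 CPM in WT and 11.37, 20.09 and 17.83 CPM in KO-labelled libraries. All KO-labelled values lay below all WT values, as Bcl2 lay above in the same libraries. Groups did not overlap for 35.1% of all genes tested in MPP1. Bcl2l11 fell by 1.06 ± 0.34 on the log2 scale (edgeR adjusted p = 0.02980), and after subtraction the log2 fold change was -1.49 (adjusted p = 0.03661). The call was lost with no filter on low counts (adjusted p = 0.06929) and without WT MPP1 replicate 1, 2 or 3 or KO MPP1 replicate 1 or 3 (adjusted p from 0.06514 to 0.1739), with log2 fold changes of -0.85 to -1.12 in those 5 fits.

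In HSC, Bcl2l11 was 17.73, 16.98 and 16 CPM in WT and 14.98, 16.21 and 11.37 CPM in KO-labelled libraries, with a log2 fold change of -0.25 ± 0.35 and overlapping groups. In MPP2-labelled libraries it was 29.64, 34.27 and 39.85 CPM in WT and 23.66, 24.16 and 27.36 CPM in KO. There the groups did not overlap, as was so for 25.2% of all genes tested, and the log2 fold change of -0.46 ± 0.34 was not called. In MPP4-labelled libraries, where WT was 13.15, 23.81 and 23.57 CPM and KO 12.26, 23.66 and 28.76 CPM, it was 0.09 ± 0.34. The interaction for Bcl2l11 was not called (edgeR adjusted p = 0.2953), so a difference between populations was not shown. Averaged over the 4 populations it fell by 0.42 ± 0.17 (adjusted p = 0.03522, 0.03242 after subtraction), a call ended by the omission of any of 13 of the 24 libraries and by using no filter (adjusted p = 0.08141). Among WT populations Bcl2l11 rose in MPP2-labelled libraries against HSC by 1.03 ± 0.34 (adjusted p = 0.02535), a call lost after subtraction (adjusted p = 0.09057), with no filter (adjusted p = 0.0563) and without any of 5 of the 6 libraries. The difference of 1.02 ± 0.34 in MPP1 was not called by edgeR over all libraries (adjusted p = 0.08829), but DESeq2 called it (1.04, adjusted p = 0.01055), as did edgeR in a fit of only the 6 libraries (1.04, adjusted p = 0.02126). In MPP4-labelled libraries the difference was 0.25 ± 0.34 (edgeR adjusted p = 0.7838).

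Bbc3 (Puma), a p53 target that can bind every pro-survival member, had its highest mean in HSC. Its WT levels were 23.83, 31.57 and 29.72 CPM in HSC, 18.23, 21.39 and 11.48 CPM in MPP1, 23.09, 4.895 and 11.16 CPM in MPP2-labelled and 5.081, 10.13 and 5.808 CPM in MPP4-labelled libraries. The lowest WT HSC library, at 23.83 CPM, stood just above the highest of the other 9, at 23.09 CPM. The share of all genes with such a gap was not counted. Among KO-labelled libraries the mean was also highest in HSC (34.85 CPM), but HSC, down to 18.24 CPM, overlapped all 3 other populations. These reached 29.63 CPM in MPP2-labelled libraries (mean 23.56 CPM), 22.39 CPM in MPP1 and 19.51 CPM in MPP4-labelled libraries. Bbc3 fell in WT MPP4-labelled libraries against HSC by 2.00 ± 0.50 on the log2 scale (edgeR adjusted p = 0.003817), and after subtraction the difference was -2.21 (adjusted p = 0.02430). It remained called in each of the 6 fits that left out a library. Against WT HSC, WT MPP2-labelled libraries were not called (-1.12 ± 0.47, adjusted p = 0.09606), but they were called in a fit of only the 6 libraries (-1.17, adjusted p = 0.02482) and without WT MPP2 replicate 1 (-1.82, adjusted p = 0.01742). WT MPP1 was not called (-0.74 ± 0.47, adjusted p = 0.6532). Between genotypes Bbc3 was not called in any population, and single libraries spread widely, from 18.24 to 54.71 CPM in KO-labelled HSC. The average over the populations was 0.53 ± 0.24 (adjusted p = 0.05861), and it was called with no filter (adjusted p = 0.03817) and without any of 6 libraries (adjusted p from 0.01433 to 0.04364). After subtraction it was 0.31 (adjusted p = 0.4981), and over HSC and MPP1 only it was 0.23 (adjusted p = 0.5826).

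Bad and Bid were not called in any comparison over all libraries. Bad, which growth factor signalling holds inactive, had 2 to 48 counts per library, and background made up an estimated 56.3% of its count in WT MPP4-labelled libraries. Its groups did not overlap in MPP1 (1.03 ± 0.78, edgeR adjusted p = 0.4381), as was so for 35.1% of all genes tested there. Without WT MPP4 replicate 3, at 9.907 CPM the highest Bad value of that group, its average over the populations was 0.92 and was called (adjusted p = 0.04047). Bid, which caspase-8 cleaves and so ties the death receptors to the mitochondria, had 39 to 216 counts. Bid was highest in MPP2-labelled libraries, at 41.19, 49.81 and 42.4 CPM in WT and 52.37, 69.57 and 66.72 CPM in KO. These groups did not overlap, as was so for 25.2% of all genes tested there, and the log2 fold change of 0.50 ± 0.33 had an edgeR adjusted p of 0.4197. Against WT HSC, which ranged from 10.35 to 47.15 CPM, WT MPP2-labelled libraries were 0.76 ± 0.34 higher (adjusted p = 0.1175), and 1.49 (adjusted p = 0.002066) without WT HSC replicate 3. Exons of Bid share 17.7% and those of Bad 20.5% of their bases with a gene on the opposite strand (Bcl2l13 and Gpr137), and whether counting used strand is not given in the sources used here.

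Pmaip1 (Noxa), which mainly opposes Mcl1, had counts of 0 to 19 under the WT label and 0 to 6 under the KO label. It was at 0 in 3 of 12 WT and 9 of 12 KO-labelled libraries. In KO-labelled HSC all 3 libraries were at 0, which allows up to the floor, and WT HSC had 7, 2 and 0 counts. The largest counts were in WT MPP2-labelled libraries, at 5, 19 and 8. The estimated background exceeded the Pmaip1 count in most groups, so no fold is given.

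**Figure D2:**
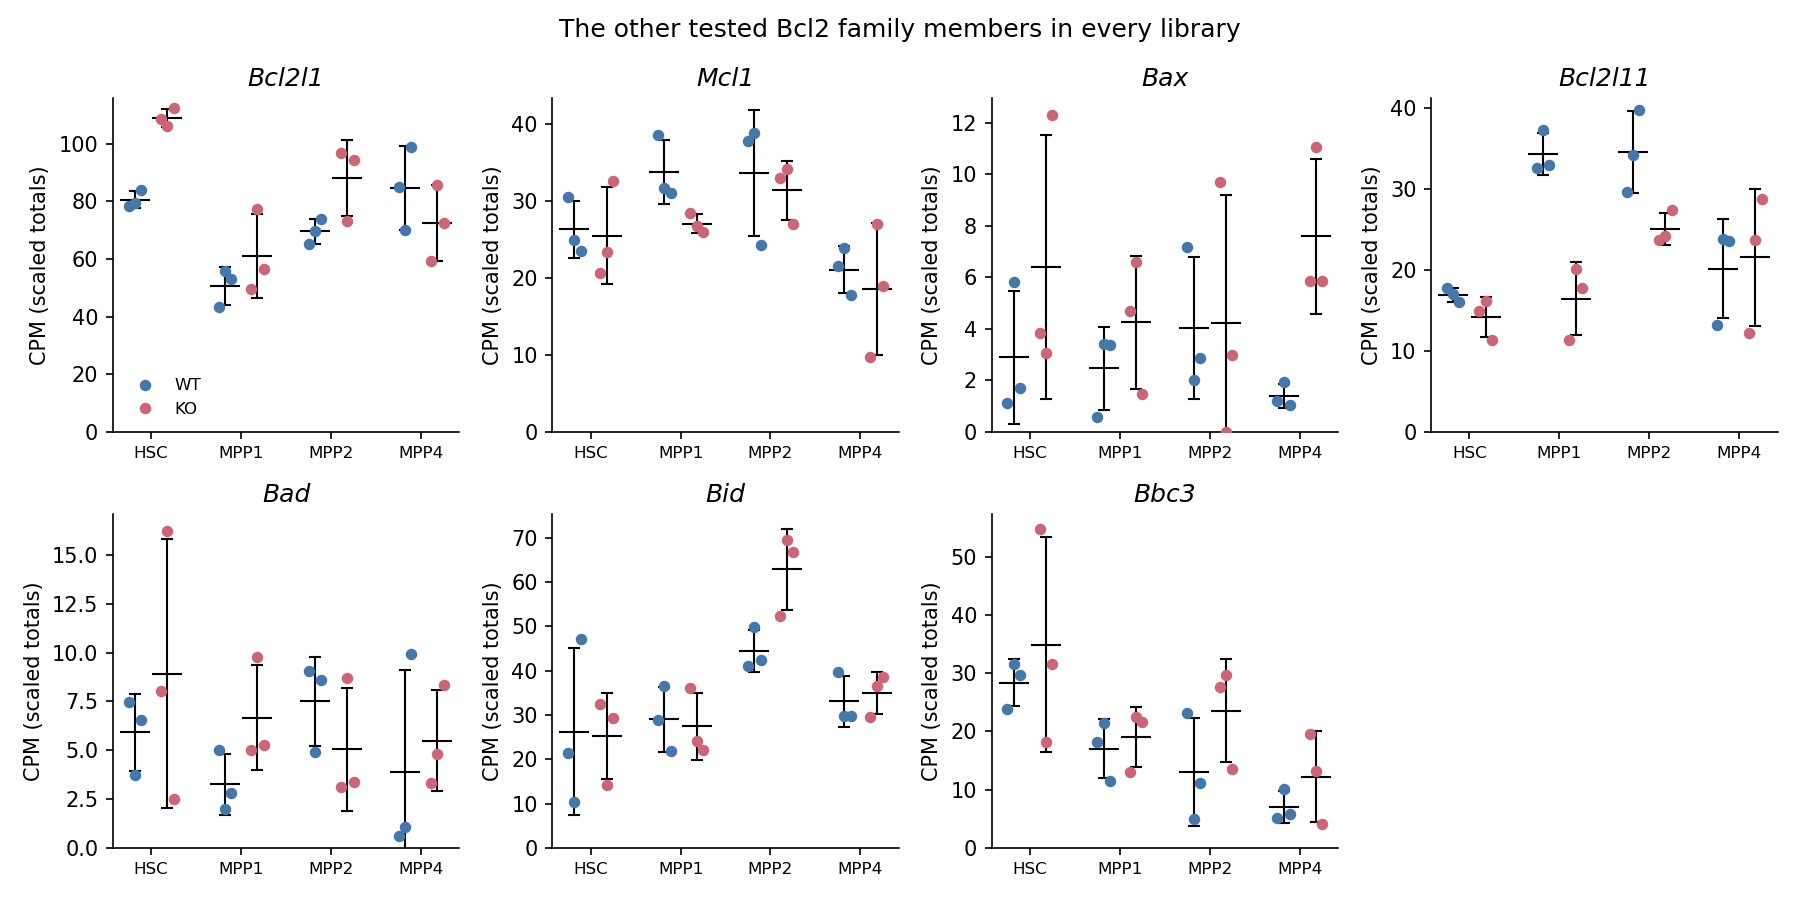
Levels in CPM on scaled totals (y axes, each from 0 with its own scale) of the 7 other tested members in each library, by labelled population (x axis) and genotype (colour), with mean and SD of 3 libraries as bars. The KO-labelled libraries lie below WT for Bcl2l11 in MPP1 and above WT for Bcl2l1 in HSC, and for most other pairs the points of both genotypes overlap.

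Counted over the family, 1 of the 8 tested members was called between genotypes in HSC, where 43.1% of all genes tested were called. In MPP1, 2 of 8 were called against 13.6% of all genes, in MPP2-labelled libraries 1 of 8 against 7.9%, and in MPP4-labelled libraries 1 of 8 against 17.9%. For the average over the populations 3 of 8 were called against 53.2%, and for the interaction 1 of 8 against 17.7%. The 7 members other than Bcl2 had adjusted p of 0.2083 to 0.9603 in the interaction. After subtraction the shares of all genes were 9.54%, 6.13%, 4.72%, 7.65%, 24.9% and 6.27%, and the numbers of members called were as before, though Bax gave way to Mcl1 in the average. With so few members these shares do not set the family apart. The median log2 fold change of the tested members was 0.37 in HSC and 0.22 in MPP1, with 0.20 and 0.31 for the labels MPP2 and MPP4, against -0.31, -0.10, -0.07 and -0.08 over all genes tested. After subtraction the members' medians were -0.07, -0.0090, 0.16 and 0.15, against -0.19, -0.08, -0.07 and -0.08 over all genes, so their sign turned in HSC and MPP1. With median-of-ratios scaling the median of all genes moved to -0.46 in HSC and -0.24 in MPP4-labelled libraries, and the direction of each member called in a single population stayed. In WT populations 2 of 8 members were called in each of MPP1, MPP2-labelled and MPP4-labelled libraries against HSC, where 3.8%, 19.1% and 10.3% of all genes were. After subtraction 1, 1 and 2 of 8 were called against 4.33%, 10.7% and 11.3%.

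**Figure D3:**
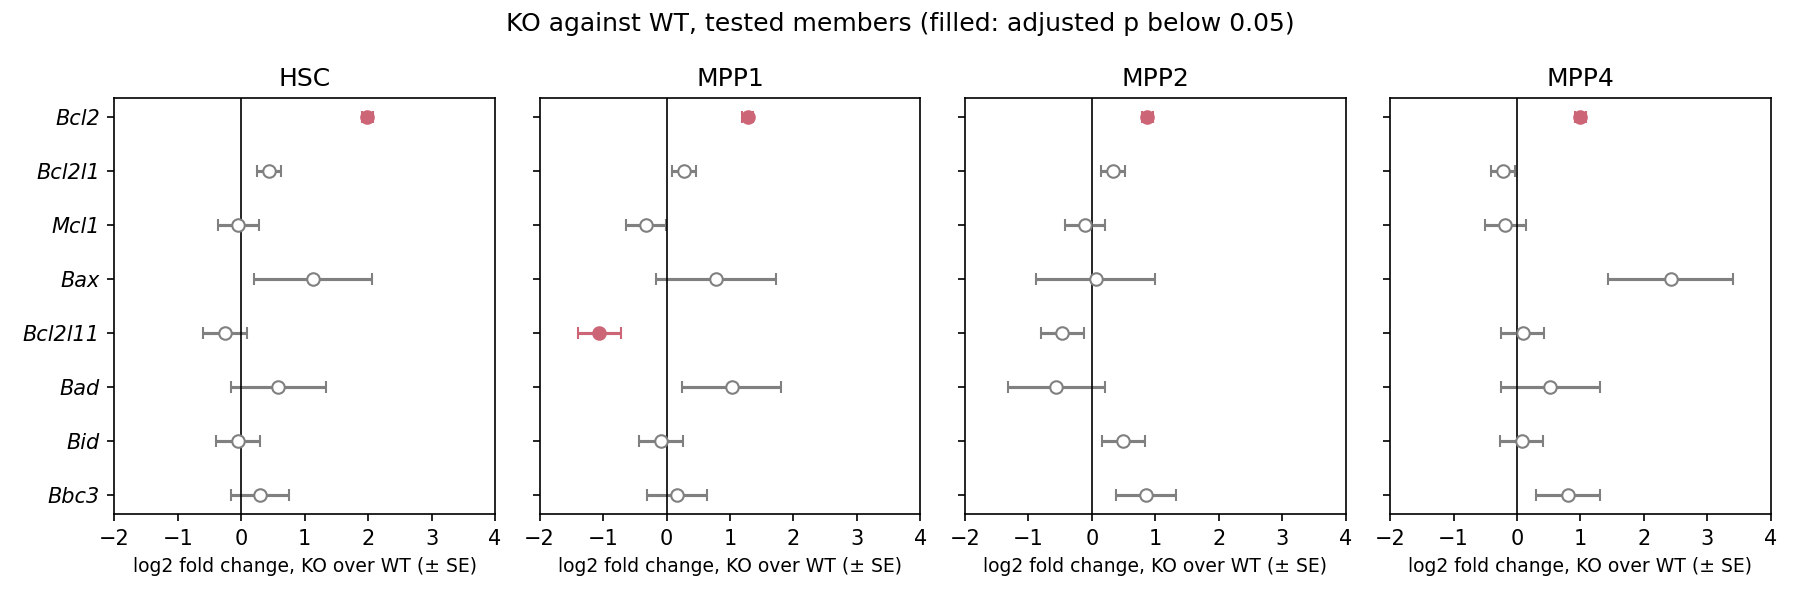
Log2 fold change of KO-labelled over WT libraries (x axes, bars are SE, 3 against 3 libraries) for the 8 tested members (y axis) in each labelled population, filled where the adjusted p was below 0.05. Bcl2 is filled in all 4 panels, at 1.98, 1.28, 0.87 and 1.00, and Bcl2l11 in MPP1 at -1.06.

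To compare members with each other, CPM was divided by the length of each gene's exons. On this scale Bcl2 was the most abundant member in every group, at 32.9 ± 1.03 CPM per kb in WT HSC and 130.1 ± 7.81 in KO-labelled HSC. Bcl2l1 followed at 17.6 CPM per kb in WT HSC, then Bbc3 at 13.4 and Mcl1 at 7.69. The summed level of the 10 members was 85.5 ± 3.82 CPM per kb in WT HSC and 194.2 ± 17.6 in KO-labelled HSC. It was 70.8 ± 7.90 and 109.2 ± 7.02 in MPP1, 143.3 ± 3.83 and 227.6 ± 6.96 in MPP2-labelled, and 82.5 ± 5.70 and 126 ± 11.9 in MPP4-labelled libraries. Without Bcl2 the sums were 52.6 ± 4.77 and 64.1 ± 10.03 in HSC and 44.5 ± 5.21 and 45.5 ± 6.66 in MPP1. Bcl2 alone made up 38.6 ± 2.78% of the family sum in WT HSC and 67.1 ± 2.36% in KO-labelled HSC, and 37.1 ± 3.07% and 58.5 ± 3.54% in MPP1. The share of the 3 pro-survival genes together went from 68.2 ± 4.23% to 83.3 ± 3.55% in HSC and from 66.8 ± 3.86% to 77.9 ± 1.94% in MPP1. It was 79.3 ± 3.07% and 83.9 ± 1.47% in MPP2-labelled libraries. In MPP4-labelled libraries it was 77.9 ± 2.74% and 79.9 ± 0.211%. Of these 3 genes only Bcl2 had a larger share in KO-labelled HSC and MPP1. The share of Bcl2l1 went from 20.58 to 12.31% in HSC and from 15.65 to 12.14% in MPP1. That of Mcl1 went from 9.035 to 3.86% and from 14.11 to 7.261%. All sums and shares are on the deposited counts, without subtraction. Bak1, listed at 0 in every library and so not assessed, adds nothing to these sums and shares. These are levels of RNA, and the proteins were not measured.

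**Figure D4:**
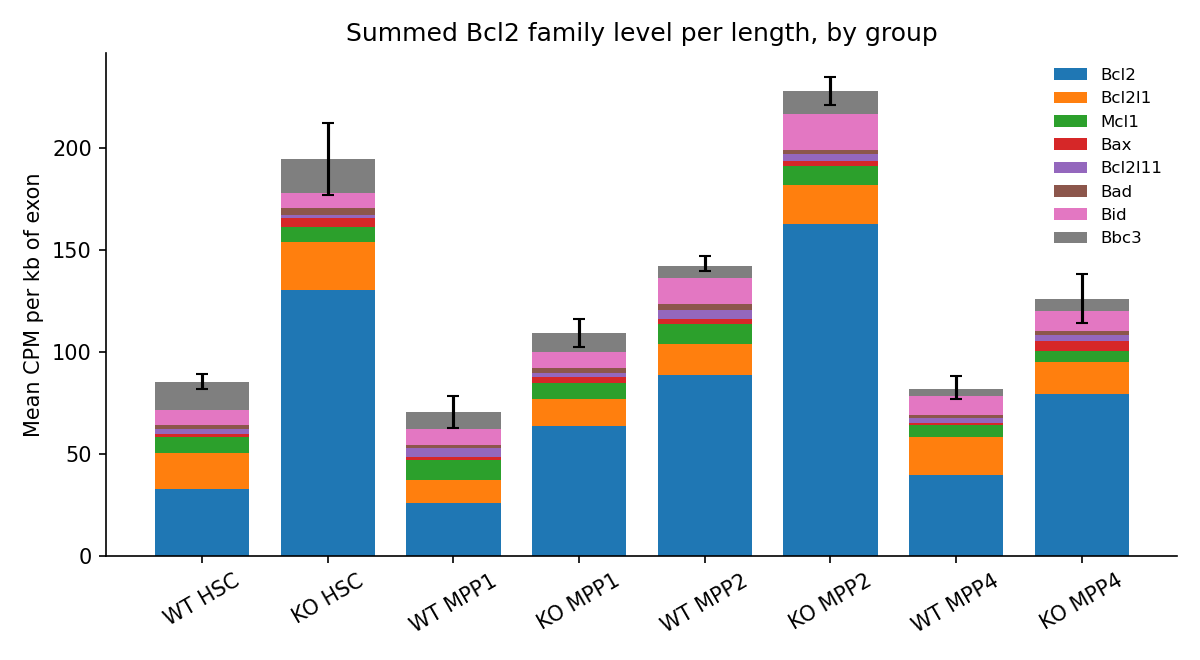
Mean level of each member per kb of exon (y axis, CPM per kb, stacked from 0) in the 8 groups (x axis), with the SD of the summed level over 3 libraries as the bar. The Bcl2 segment is the largest in every group, and the sum goes from 85.5 to 194.2 between WT and KO-labelled HSC.

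The wider apoptosis pathway was read from 4 lists. Of all genes tested, 18.3% rose and 24.8% fell in HSC, 8.71% and 4.9% in MPP1, 3.73% and 4.17% for the label MPP2, and 11.4% and 6.47% for the label MPP4. Of 15 other relatives of Bcl2, 10 were tested, and in KO-labelled HSC 2 rose and 2 fell. Bcl2l13, a mitochondrial relative, rose by 1.06 ± 0.18 (edgeR adjusted p = 9.016e-06, and 0.83 with 0.004306 after subtraction). Bnip3l, a receptor for the removal of mitochondria, rose by 0.73 ± 0.15, a call lost after subtraction. Bmf, a BH3-only gene, fell by 3.21 ± 0.97, and after subtraction it was no longer called (adjusted p = 0.1935). Bcl2l15 was at 0 in all KO-labelled HSC libraries and at 3.325, 2.387 and 5.143 CPM in WT HSC, where background made up an estimated 96.6% of its count. In the progenitors Bnip3l rose by 0.54 ± 0.15 in MPP1 and by 0.58 ± 0.15 in MPP4-labelled libraries, where median-of-ratios scaling ended the call (adjusted p = 0.05796), and both calls were lost after subtraction. None of the 10 passed in MPP2-labelled libraries by edgeR or DESeq2, and 0 had an unadjusted p below 0.05.

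Of 21 genes of caspases, the apoptosome and their inhibitors, 20 were tested, and 11 rose and none fell in KO-labelled HSC by edgeR. In MPP1 1 rose, and in MPP4-labelled libraries 6, while the count for the label MPP2 is not reported here. After subtraction 0 of 19 passed in edgeR in these 3 populations, with 2 genes at an unadjusted p below 0.05 in HSC, 1 in MPP1 and 2 under the label MPP4. On the deposited counts DESeq2 called 8 in HSC and 2 in MPP4-labelled libraries, and with median-of-ratios scaling 8 rose in HSC and 1 in MPP4-labelled libraries. Among the smallest p in HSC were those of Birc6 (0.69 ± 0.089) and Xiap (0.60 ± 0.16), which inhibit caspases, and Vdac1 (0.93 ± 0.24), a channel of the outer membrane. Birc6, Xiap, Vdac1 and Casp2 rose in MPP4-labelled libraries by 0.36 to 0.72, of which only the call of Xiap held with median-of-ratios scaling. The gene of this list that rose in MPP1 was Dffb (1.57 ± 0.51), a nuclease that cuts DNA in apoptosis.

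Of 12 death receptor pathway genes, 11 were tested. In KO-labelled libraries 5 rose and 1 fell in HSC, 4 rose in MPP1, none was called by edgeR in MPP2-labelled libraries (5 had an unadjusted p below 0.05, and DESeq2 called 1) and 6 rose in MPP4-labelled libraries. After subtraction 1 of 10 was called in HSC, 2 in MPP1, 0 under the label MPP2 (2 at an unadjusted p below 0.05) and 3 under the label MPP4. Tnfsf10, which encodes the death ligand TRAIL, was 93.93, 114.1 and 88.58 CPM in WT HSC and 297.6, 199.3 and 275.8 CPM in KO-labelled HSC. It rose by 1.38 ± 0.17 in HSC (edgeR adjusted p = 1.194e-08), 1.32 ± 0.17 in MPP1 and 1.92 ± 0.18 in MPP4-labelled libraries, and each of these calls held after subtraction, with log2 fold changes of 0.91, 1.05 and 1.72. Its interaction was called (adjusted p = 3.964e-05). Tnfrsf1b, a TNF receptor, rose by 0.56 ± 0.15 in HSC, 0.95 ± 0.15 in MPP1 and 0.74 ± 0.16 in MPP4-labelled libraries, and after subtraction it passed in MPP1 and MPP4-labelled libraries. Casp8, which cleaves Bid, rose by 0.59 ± 0.15 in HSC and 0.54 ± 0.15 in MPP1, and neither call held after subtraction. Ripk1 rose by 0.71 ± 0.21 in HSC and 1.07 ± 0.22 in MPP4-labelled libraries, where the call held after subtraction.

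Of 14 regulators of the members, 13 were tested. In HSC 7 rose and 1 fell, in MPP1 3 rose, in MPP2-labelled libraries 1 rose and 2 fell, and in MPP4-labelled libraries 6 rose. With median-of-ratios scaling, 4 rose and 1 fell in HSC, and 3 rose and 1 fell in MPP4-labelled libraries. After subtraction 2 rose and 1 fell in HSC, 1 rose in MPP1, 3 fell under the label MPP2, and 2 rose and 1 fell under the label MPP4. Huwe1, a ubiquitin ligase that marks Mcl1 for decay, rose in all 4 populations, by 0.85 ± 0.068 in HSC (edgeR adjusted p = 1.985e-13), 0.58 ± 0.068 in MPP1, and 0.28 ± 0.068 and 0.60 ± 0.068 for the labels MPP2 and MPP4. After subtraction these were 0.35, 0.28, 0.14 and 0.27, and the call in MPP2-labelled libraries was lost (adjusted p = 0.3000). Usp9x, which removes ubiquitin from Mcl1, rose by 0.54 ± 0.12 in HSC and 0.63 ± 0.12 in MPP4-labelled libraries, and only the latter call held after subtraction. E2f1 rose by 1.95 ± 0.36 in HSC. Foxo3 and Foxo1, factors that drive Bcl2l11 and Bbc3 in many cells, fell in MPP2-labelled libraries by 0.49 ± 0.12 and 0.76 ± 0.19, and both calls held after subtraction.

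Genes outside the pathway were also compared with the pattern of a member over the 8 group means of log2 CPM, among 10514 genes of at least 10 CPM, as a description. The genes most like Bcl2 were Hnrnpul1, Ube2z and Idh3g, each with a Pearson r of 0.989. For Bcl2l1 they were Ppp1r37 (0.917), Decr1 (0.914) and Tpra1 (0.892), and for Bcl2l11 Siglecg (0.979), Rpl10 (0.972) and Acbd5 (0.916). The 8 points share their libraries, and other genes headed the list when medians of the 3 libraries were used, with Eif4g1 first for Bcl2 (0.990).

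Markers of other cell types moved with genotype in the libraries in which Bcl2 was compared. Calls on them are on the deposited counts unless said otherwise. Of all genes tested, 18.3% rose and 24.8% fell in HSC, and 8.71% and 4.9% in MPP1. Under the labels MPP2 and MPP4, 3.73% and 11.4% rose and 4.17% and 6.47% fell. In HSC the summed level of 7 red cell genes was 153.5 to 169 CPM in WT and 67.6 to 73.2 CPM in KO-labelled libraries. All 6 tested genes of that list fell, and Alas2 was at 0. The sum of 8 megakaryocyte-erythroid genes was 208.9 to 239.8 CPM in WT and 521.9 to 599.7 CPM in KO-labelled HSC, where 3 of 6 tested rose, and Gp1bb was at 0 in WT. In MPP1 this list went the other way, from 134.7 to 151.4 CPM in WT to 47.9 to 58.2 CPM in KO-labelled libraries, and 4 of 6 fell. Under the label MPP4 it was at 264.1 to 277.4 and 144.1 to 205.1 CPM, and 1 of 6 fell. Under the label MPP2 the genotypes overlapped, at 44 to 49.6 and 26.8 to 68.3 CPM, and 0 were called. The sum of 8 HSC genes was 6412 to 6525 CPM in WT and 11890 to 12390 CPM in KO-labelled HSC, where 5 of 8 rose and 1 fell. Of these 8 genes 3 rose in MPP1, 1 rose and 4 fell under the label MPP2, and 4 rose and 1 fell under the label MPP4. In MPP1 the lymphoid-primed list was at 693.2 to 721.5 CPM in WT and 1288 to 1407 CPM in KO-labelled libraries, with 6 of 7 tested genes called as a rise and Rag1 at 0, and the myeloid list at 160.4 to 195.2 and 27.0 to 36.1 CPM, with 4 of 8 called as a fall and none at 0. The red cell list in MPP1 was at 607.3 to 652.9 CPM in WT and 56.1 to 86.2 CPM in KO-labelled libraries, and all 6 tested genes fell. Under the label MPP2 the lymphoid-primed list was at 3547 to 3809 CPM in WT and 10010 to 10500 CPM in KO-labelled libraries, although 1 of its 7 tested genes rose and 2 fell. In the same libraries the sum of 7 mast cell and basophil genes was 127.6 to 137.4 CPM in WT and 288.3 to 344.6 CPM in KO, with 5 of 7 called as a rise and none at 0. The red cell list there was at 326.5 to 357 and 198.7 to 235.4 CPM, with 3 of 6 called as a fall. Under the label MPP4 the mast cell and basophil list was at 193.4 to 258.1 CPM in WT and 596.8 to 674 CPM in KO, where 4 of 7 rose. The myeloid list there was at 143.1 to 174.5 and 378 to 423.6 CPM, with 5 of 8 called as a rise, and the red cell list at 709.2 to 804.9 and 279.3 to 353.2 CPM, with 6 of 6 called as a fall. In HSC the mast cell and basophil list was at 225.5 to 243.2 CPM in WT and 435.4 to 551.6 CPM in KO-labelled libraries, with 1 of 7 called as a rise, 2 as a fall and Prss34 at 0 in the latter. Alas2 and Rag1 were at 0 in all 8 groups. After subtraction 1 of the 8 HSC genes rose and 1 fell in HSC, and 1 of 6 megakaryocyte-erythroid genes rose there. In MPP1 2 of 6 megakaryocyte-erythroid and 4 of 8 myeloid genes fell, and 5 of 7 lymphoid-primed genes rose. Mast cell and basophil genes rose in 2 of 7 cases under the label MPP2 and 4 of 7 under the label MPP4, where 3 of 8 myeloid genes rose. Red cell genes called as a fall stayed at 6, 6, 3 and 6 in the 4 populations. The part of these shifts in the result for Bcl2 was not tested.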

How the data were processed

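RNA-seq of 24 libraries was deposited by the authors as a table of raw read counts, with genes in rows. Per the submitters' processing notes mm39 was the genome build, with SAMtools 1.12 and DESeq2 among the tools. The aligner, annotation and strand setting are not given in the sources used here. Columns were matched to samples by the description labels, and groups came from the titles.

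Genes were filtered with filterByExpr (21964 of 56748 kept), scaled by the trimmed mean of M-values and fitted with edgeR 4.0.16 under R 4.3.3 in 1 quasi-likelihood model of all 24 libraries with a mean per group (residual degrees of freedom 16, common biological variation, as a coefficient, 0.393). Calls needed an adjusted p (Benjamini-Hochberg over all genes tested) under 0.05. Tests covered 9 contrasts: the KO effect within each population, its mean over the 4, its interaction with population (numerator degrees of freedom 3), and each WT progenitor population relative to WT HSC. Differences of the KO effect in HSC from that in each other population were added after the data were seen. Fold changes are log2, with a standard error derived from the F statistic. CPM are on scaled totals. Within groups, pairs of libraries gave a chi-square per gene of 4.17 to 9.71, above counting error.

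Background was the count per kb of gene span on 2002 olfactory and vomeronasal receptor genes. Times each gene's span, it was taken off the counts, with rounding and a minimum of 0, before a second fit of 18761 genes without the receptor genes. That fit filtered and scaled the remaining counts anew. Spans and exon lengths came from GENCODE M21 on GRCm38, an earlier build, which held 91.8% of the identifiers, and only lengths were used. Alternatives were median-of-ratios scaling, no filter, a filter of 5 CPM in 3 libraries, DESeq2 1.42.0, fits of the 6 libraries compared, a replicate block, the omission of single libraries and, added after seeing the data, the average over HSC and MPP1. The code was tested on simulated data with changes put into KO-labelled HSC. It recovered 4 of 100 genes changed 1.5-fold and 44 of 100 changed 3-fold, so a gene not called may still have changed. Among genes of at least 20 CPM it recovered 4 of 34 and 41 of 44. The changed genes were few among the 20667 in that fit, while 43.1% of genes were called in the real HSC comparison. The adjusted p thus had a stricter cutoff in the simulation, and these rates need not hold for the data.

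The rule for named genes took all 10 members in every comparison, some of which, where not called, are given as a count or range only, and up to 4 called genes of each other list with the smallest adjusted p and a mean of at least 1 CPM. Some genes that this rule takes are not reported here. For the 3 members with the smallest interaction p, the 3 genes most like them are named. Genes listed at 0, Bcl2l2, Diablo and Fbxw7, and the gene Ggnbp1 were chosen after their values were seen. The members and lists were chosen with earlier results of these data known.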

Additional observations from a re-analysis of the deposited data

Results flagged for a closer look

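The effect of genotype on Bcl2 differed between the 4 populations by edgeR's test of the interaction itself, with an adjusted p of 2.974e-09. The log2 fold change was 1.98 in HSC and 1.28 in MPP1, and under the labels MPP2 and MPP4 it was 0.87 and 1.00, with higher values in all KO-labelled libraries than in all WT libraries of each population. The adjusted p ranged from 6.259e-19 to 3.247e-04 over the other settings and from 4.152e-10 to 4.669e-08 with 1 library left out. The estimated share of background in all counts was also further apart between WT and KO-labelled libraries in HSC (20.2 to 22.9% against 5.21 to 5.73%) than in MPP2-labelled libraries (11.3 to 11.6% against 8.64 to 9.85%). With that background subtracted, the adjusted p was 3.247e-04.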

How the results depend on the processing

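For the 8 tested members, leaving out 1 library changed no direction of a called value: 944 values kept their side of the threshold, 50 lost it and 14 gained it. Under the other settings 613 kept it, 15 lost it and 6 gained it. The rise of Bcl2 in each population was called in every setting and without any single library. Subtracting background moved the numbers of all genes called for KO against WT from 9462 to 1789 in HSC, from 2988 to 1150 in MPP1, and, under the labels MPP2 and MPP4, from 1735 to 885 and from 3926 to 1436, from 11689 to 4677 for their average, from 3881 to 1176 for the interaction and from 4195 to 2000 for WT MPP2-labelled libraries against HSC. It left 1 member called instead of 2 in WT MPP1 and in WT MPP2-labelled libraries against HSC. With no filter on low counts, 1 member was called instead of 2 in KO against WT in MPP1 and in WT MPP2-labelled and MPP4-labelled libraries against HSC. A fit of only the 6 libraries compared left 1 member called instead of 2 in WT MPP4-labelled libraries. The cause of these moves was not tested.

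With 1 library left out, the members called ranged from 1 to 2 in MPP1, from 1 to 5 for the average, from 0 to 1 in WT MPP1, from 1 to 3 in WT MPP2-labelled and from 1 to 2 in WT MPP4-labelled libraries against HSC. All genes called ranged from 1091 to 1397 in MPP2-labelled libraries for KO against WT, from 2105 to 2306 in MPP1, and from 570 to 659 in WT MPP1 against HSC. With median-of-ratios scaling, 1421 genes rose and 1300 fell in MPP1 in place of 1912 and 1076, 1521 and 1927 in MPP4-labelled libraries in place of 2506 and 1420, and 999 and 1241 in WT MPP4-labelled libraries against HSC in place of 640 and 1633.

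No pairing of the samples by replicate number was seen. The correlation of deviations from group means over 84 pairs with the same number averaged 0.00264 and was at most 0.0506. Whether libraries came from the same mouse cannot be read from this. With the replicate number as a block, 9306 genes were called in HSC, 2960 in MPP1, and 1681 and 3857 under the labels MPP2 and MPP4, and 2 members instead of 3 for the average, since Bax was no longer called. Depth limits Bax, Bad and Pmaip1, whose counts reached 0 to 2 in some libraries, and Bak1 could not be assessed.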
